A study of Mus musculus with 24 samples.

Results

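How far the 2 h LPS response differed with genotype was measured in mouse bone marrow-derived macrophages (BMDMs), cultured from marrow in L-cell conditioned medium. It is the change from 0 h to 2 h with LPS in cells labelled FosKO minus the same change in control cells, and it was computed for every gene that passed a filter on low values. It used 12 of the 24 libraries of the series for its value, 3 in each of 4 groups, and the other 12 libraries (0.5 and 1 h) added to the estimate of the spread. A positive difference means that the gene rose more, or fell less, when labelled FosKO. The question was how FOS, a subunit of the transcription factor AP-1, shapes the response of macrophages to lipopolysaccharide (LPS), the bacterial ligand of TLR4.

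The control groups were LysM-Cre cells left unstimulated (LysM_unstim) or given 100 ng/ml LPS for 2 h (LysM_stim120). The other groups were LysM-Cre Fos-fl/fl cells, labelled FosKO, treated in the same ways (FosKO_unstim and FosKO_stim120). All mice were C57BL/6, all cells spent a night in medium low in serum before LPS, and the age of the mice was not given in the sources used here. The Cre gene sits in Lyz2, the lysozyme M locus, so deletion depends on that locus being active. The labels name the controls LysM-Cre alone, whereas the study's text gives them a floxed Fos allele too. The methods call the libraries biological replicates, and the labels do not say which mouse each came from.

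Values are normalised log2 values as deposited, in which a difference of 1 is a doubling. They do not show how many reads a library had, so the spread between libraries is the error given here. Within a group, the correlation of libraries across genes had an r of 0.9957 to 0.9982, and 18S ribosomal RNA (Rn18s-rs5) ran from 18.83 to 19.35 over the 12 libraries. In 5 libraries of the series, all at 0.5 or 1 h, it was below 18 and as low as 16.65, and a fit without these called 1897 genes. The summed linear values of 10 macrophage markers ran from 238000 to 244000 in LysM_unstim, 265000 to 272000 in LysM_stim120, 327000 to 347000 in FosKO_unstim and 389000 to 395000 in FosKO_stim120. Lyz2, the locus that holds Cre, is among these markers. It was far higher in FosKO-labelled libraries, as given below, and makes up much of the gap between the genotypes in this sum. Of these 10, limma called 3 positive for the difference in response (30%, against 7.27% of all tested genes) and none negative. Of other cell types, 10 neutrophil markers, of which 5 passed the filter, summed to 364 to 402 in LysM_unstim, 439 to 494 in LysM_stim120, 299 to 350 in FosKO_unstim and 347 to 359 in FosKO_stim120. The difference in response lay below 0 in all 5 of these and was called in none by limma, with the lowest adjusted p, 0.248, for Ltf. The 7 dendritic cell markers, of which 4 passed, summed to 44.4 to 45.7, 131 to 140, 44.6 to 55.4 and 103 to 107 in the same order, and Zbtb46 was called negative (-0.85, adjusted p 0.0223). That call was lost without FosKO_unstim replicate 2 (-0.76, adjusted p 0.0631), LysM_stim120 replicate 3 (-0.81, adjusted p 0.052) or FosKO_stim120 replicate 2 (-0.78, adjusted p 0.0586). The 8 T or NK cell markers, of which 2 passed and neither was called, summed to 221 to 240, 230 to 276, 278 to 367 and 326 to 347. The 5 B cell markers summed to 48.1 to 53.8 in LysM_stim120 and 41.1 to 47.3 in FosKO_stim120, while those of mast and stromal cells overlapped at 2 h. The sums of macrophage, neutrophil, dendritic, T or NK and B cell markers thus differed without overlap between the genotypes at 2 h, and their part in the results was not tested. The 3 erythroid markers summed to at most 1.19. In bulk RNA, fewer cells of a type and less RNA per cell cannot be told apart.

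The targeted gene does not verify the labels. Fos was 11.17, 11.07 and 11.10 in LysM_unstim, 9.61, 9.42 and 9.52 in LysM_stim120, 12.72, 12.41 and 12.67 in FosKO_unstim, and 12.93, 12.67 and 12.81 in FosKO_stim120. FosKO-labelled libraries were above the controls at both times, without overlap. In the controls Fos fell from 0 h to 2 h by 1.60, and in FosKO-labelled libraries it changed by 0.20 (not called, adjusted p 0.054), which gave a difference in response of 1.80 (SE 0.12, limma adjusted p 6.15e-09). The floxed part of Fos cannot be told from the rest of its transcript in a table with 1 value a gene, so the directions below rest on the labels. Lyz2 was 10.90, 11.04 and 10.87 in LysM_unstim and 16.08, 16.12 and 16.12 in FosKO_unstim. After 2 h Lyz2 was 11.18, 11.43 and 11.17 in the controls and 16.33, 16.29 and 16.33 in FosKO-labelled libraries. The groups thus also differed at the locus that holds Cre, before and after LPS, and its part in the results was not tested. The difference in the response of Lyz2 was -0.11 (SE 0.12, adjusted p 0.64), which was not called.

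As background, TLR4 signals through 2 adaptor routes. One activates NF-kB and the MAP kinases, among them ERK, and drives early transcription factors and inflammatory cytokines. The other, through TRIF and the kinase TBK1, activates the interferon regulatory factors that induce Ifnb1. Interferon beta then acts on its receptor, IFNAR, and turns on interferon-stimulated genes in the same and in neighbouring cells. AP-1 dimers of FOS and JUN proteins bind a short palindrome in promoters and enhancers and work beside NF-kB at many inflammatory genes.

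The promoters of leading genes are shown because the type I interferons rose far more in FosKO-labelled libraries, while Ccl22 and Cxcl3 rose less. Each window runs from 250 bases before to 50 bases after the start of transcription, 5′ to 3′ on the strand of the gene, from RefSeq on GRCm38.p6. Capitals mark matches, on either strand, to an interferon-response letter pattern (GAAA, any 2 bases, GAAA), the AP-1 pattern TGANTCA or the NF-kB motif. The windows of Ifnb1 (chr4:88522745-88523044, minus strand), Ifna2 (chr4:88683730-88684029, minus strand) and Ifna5 (chr4:88835275-88835574, plus strand) hold type I interferon promoters. Those of Il6 (chr5:30012864-30013163, plus strand), Cxcl3 (chr5:90785851-90786150, plus strand) and Ccl22 (chr8:94745434-94745733, plus strand) belong to a cytokine and 2 chemokines.
Ifnb1: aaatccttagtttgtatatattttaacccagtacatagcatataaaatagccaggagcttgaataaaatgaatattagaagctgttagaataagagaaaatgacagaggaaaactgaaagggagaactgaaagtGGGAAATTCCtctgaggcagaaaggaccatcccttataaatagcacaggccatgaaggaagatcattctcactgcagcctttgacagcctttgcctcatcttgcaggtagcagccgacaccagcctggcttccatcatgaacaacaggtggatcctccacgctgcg
Ifna2: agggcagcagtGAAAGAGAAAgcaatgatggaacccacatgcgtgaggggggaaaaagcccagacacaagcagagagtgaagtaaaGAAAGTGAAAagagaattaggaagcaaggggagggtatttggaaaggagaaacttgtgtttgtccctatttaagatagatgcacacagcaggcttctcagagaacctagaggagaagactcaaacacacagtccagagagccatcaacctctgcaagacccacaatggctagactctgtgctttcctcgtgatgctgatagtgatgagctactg
Ifna5: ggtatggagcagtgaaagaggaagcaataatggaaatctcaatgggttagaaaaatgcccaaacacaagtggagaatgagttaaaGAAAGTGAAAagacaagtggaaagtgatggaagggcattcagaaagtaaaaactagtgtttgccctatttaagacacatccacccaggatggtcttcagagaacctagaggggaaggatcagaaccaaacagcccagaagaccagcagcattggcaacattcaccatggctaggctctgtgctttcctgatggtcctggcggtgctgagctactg
Il6: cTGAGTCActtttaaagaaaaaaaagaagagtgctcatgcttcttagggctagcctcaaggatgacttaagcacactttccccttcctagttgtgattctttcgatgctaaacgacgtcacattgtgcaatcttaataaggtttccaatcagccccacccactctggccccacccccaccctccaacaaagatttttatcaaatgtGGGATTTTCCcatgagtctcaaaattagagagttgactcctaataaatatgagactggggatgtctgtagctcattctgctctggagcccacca
Cxcl3: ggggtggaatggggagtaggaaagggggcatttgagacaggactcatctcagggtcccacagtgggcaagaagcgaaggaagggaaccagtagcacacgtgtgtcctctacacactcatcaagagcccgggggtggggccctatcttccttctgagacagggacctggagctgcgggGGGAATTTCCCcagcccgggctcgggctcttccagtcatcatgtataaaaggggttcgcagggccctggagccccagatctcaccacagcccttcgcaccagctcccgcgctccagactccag
Ccl22: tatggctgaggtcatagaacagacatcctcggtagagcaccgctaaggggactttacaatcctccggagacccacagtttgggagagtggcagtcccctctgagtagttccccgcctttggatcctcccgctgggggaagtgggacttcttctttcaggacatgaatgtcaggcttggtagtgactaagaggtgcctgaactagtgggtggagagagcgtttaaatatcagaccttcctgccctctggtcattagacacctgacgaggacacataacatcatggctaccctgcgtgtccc
In these windows Ifna2 has the interferon-response letters at positions -239 and -164 from the start and Ifna5 at -165, while Ifnb1 has an NF-kB match at -116. Il6 has AP-1 letters at -249 and an NF-kB match at -44. In Cxcl3 the NF-kB matches at -73 and -72 overlap and are 1 stretch read on both strands. The Ccl22 window holds no match to any of the patterns searched, which says only that these letters are not in it.

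Of 13901 genes tested, limma with Benjamini-Hochberg adjustment called 2081 for a difference in the 2 h response, which is 15% of them. Positive differences were called for 1010 genes (7.27% of those tested) and negative ones for 1071 (7.7%). A difference of at least 2-fold was called positive in 47 genes (0.338%) and negative in 32 (0.23%). The median difference over all tested genes was 0.02. LPS itself changed far more genes, with 8448 called (60.8%) in LysM-Cre and 8636 (62.1%) under the FosKO label. Of the tested genes 4248 rose and 4200 fell in LysM-Cre, and 4530 rose and 4106 fell under the FosKO label. Across genes, the responses of the genotypes came from separate libraries and correlated at r = 0.906 with a slope of 0.917, and genes are not independent replicates.

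**Figure D1:**
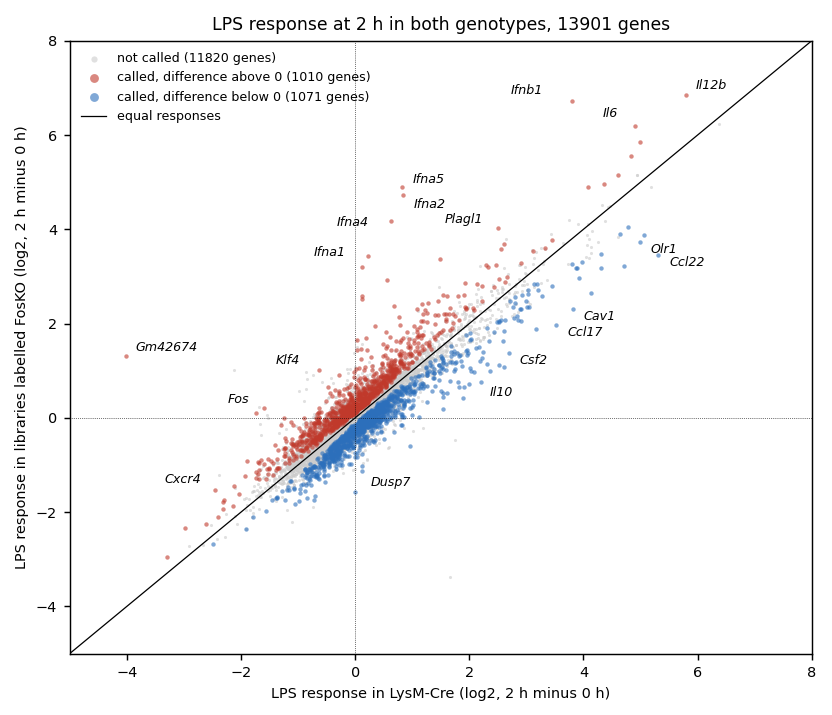
LPS response (log2, 2 h minus 0 h) of each of the 13901 tested genes in LysM-Cre (x axis) against that in FosKO-labelled libraries (y axis), with called genes in red (difference above 0, 1010 genes) or blue (below 0, 1071 genes) and a line of equal responses. The interferons lie far above the line, and Ccl22, Cav1, Il10 and Csf2 lie below it.

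Called genes reached their difference in distinct ways. Among the 1010 positive genes, 416 rose in both genotypes and 222 fell in both, 178 rose in FosKO-labelled libraries without a call in LysM-Cre, and 143 fell in LysM-Cre without a call in FosKO-labelled libraries. Among the 1071 negative genes, 351 rose in both, 296 fell in both, 186 rose in LysM-Cre without a call in the other genotype, and 173 fell in FosKO-labelled libraries without a call in LysM-Cre. A further 110 genes responded in opposite directions. Before LPS, 488 of the positive genes (48.3%) and 631 of the negative genes (58.9%) showed no called difference between the genotypes. Such a difference at 0 h was called for 35.4% of all tested genes. For 348 negative genes (32.5%) FosKO-labelled libraries already started higher, where 19.5% of all tested genes did, and for 293 positive genes (29%) they started lower, where 15.9% of all did. The starting level enters the difference itself, so these shares are a description.

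Type I interferon genes had the largest positive differences of the lists described here. Ifnb1, which encodes interferon beta (ENSMUSG00000048806, chromosome 4 from 88522025 to 88522774, minus strand), was 6.05, 6.04 and 6.14 in LysM_unstim and 9.84, 9.84 and 9.97 in LysM_stim120. It was 6.10, 6.15 and 6.26 in FosKO_unstim and 12.96, 12.78 and 12.93 in FosKO_stim120. The groups overlapped before LPS and stood apart after it, with a 14-fold rise in LysM-Cre and a 105-fold rise in FosKO-labelled libraries. The difference was 2.91 (SE 0.18, limma adjusted p 7.35e-10), or 7.51-fold. In each setting tried it kept its sign and its call.

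Interferon alpha genes lie in the same cluster on chromosome 4 as Ifnb1. Ifna5 was 2.92, 2.95 and 2.96 in LysM_unstim, 4.04, 3.52 and 3.75 in LysM_stim120, 2.99, 2.98 and 3.08 in FosKO_unstim, and 7.97, 7.75 and 8.05 in FosKO_stim120. Its difference was 4.08 (SE 0.15, adjusted p 6.95e-13). Ifna2 was 3.13, 3.15 and 3.17 in LysM_unstim, 4.19, 3.83 and 3.91 in LysM_stim120, 3.19, 3.18 and 3.17 in FosKO_unstim, and 7.88, 7.80 and 8.05 in FosKO_stim120, with a difference of 3.90 (SE 0.20, adjusted p 8.92e-11). Both genes showed a small rise in the controls and a rise of over 4 log2 units in FosKO-labelled libraries. Ifna4 (3.55, SE 0.23) and Ifna1 (3.21, SE 0.19) were also called, with adjusted p of 1.64e-09 and 5.22e-10.

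Of 18 listed type I interferon genes, 16 were in the table and 11 passed the filter. Each of the 11 had a called positive difference, between 1.37 and 4.08, where 7.27% of all tested genes were called positive. Ifna6, Ifna9, Ifna11, Ifna14 and Ifnab passed the filter through FosKO-labelled libraries alone, so that count had to come out in 1 direction for them and supports nothing. The 5 that failed the filter (Ifna12, Ifna13, Ifna15, Ifnk and Ifnz) lay between -2.22 and 0.81 in every library of the series. The Ifna genes are near copies of each other. Transcripts of Ifna1 and Ifna16 share an exact run of 155 bases, and those of Ifna5 and Ifna16 one of 120, so single-end reads can fit more than 1 of them and values for single copies are uncertain. The longest run that Ifnb1 shares with any tested Ifna transcript was 14 bases.

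**Figure D2:**
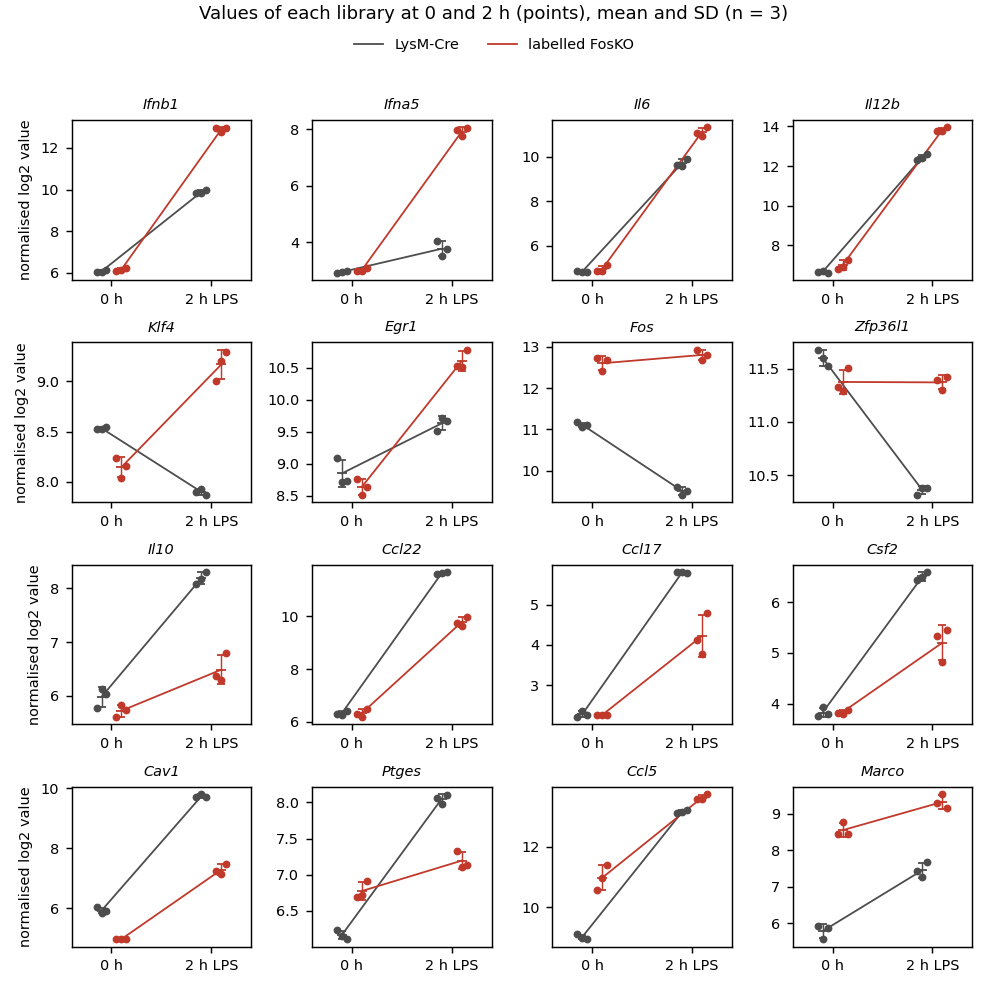
Normalised log2 value of each library (points) at 0 h and after 2 h with LPS for 16 genes, with group means joined by lines and bars of 1 SD (n = 3), in LysM-Cre (grey) and FosKO-labelled libraries (red). In Ifnb1 and Ifna5 the groups are together at 0 h and apart at 2 h, whereas in Ccl5 and Marco they are apart at 0 h and closer at 2 h.

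Genes that lead from TLR4 and from sensors of nucleic acids to interferon were called in both directions, 4 positive and 4 negative of 20 tested (20% each, against 7.27% and 7.7% of all tested genes). The largest was Irf8, an interferon regulatory factor of myeloid cells, at 11.47, 11.46 and 11.42 in LysM_unstim, 12.51, 12.45 and 12.65 in LysM_stim120, 11.56, 11.57 and 11.55 in FosKO_unstim, and 13.85, 13.85 and 13.90 in FosKO_stim120. It rose in both genotypes, 2.13-fold in LysM-Cre and 4.95-fold in FosKO-labelled libraries, a difference of 1.22 (SE 0.06, adjusted p 3.41e-11). Irf8 overlaps the gene model Gm20388 on its own strand, which can take or add reads. The receptor Tlr4 fell in both genotypes, less in FosKO-labelled libraries (difference 0.43, adjusted p 0.000125), and its co-receptor Cd14 rose more there (0.36, adjusted p 0.00233). The kinase gene Ikbke started higher in FosKO-labelled libraries and overlapped with the controls at 2 h (-0.54, adjusted p 0.000978). The other negative calls were Traf3 (-0.35), an adaptor of several routes, Mavs (-0.31), the adaptor of the cytosolic RNA sensors, and Ticam1 (-0.25), which encodes TRIF. Tbk1 (0.01, adjusted p 0.93) and Irf3 (0.00, adjusted p 0.99) were not called.

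Interferon-stimulated genes, which encode antiviral proteins and sensors, were for the most part not called. Of 53 tested members, limma called none positive (1 at an unadjusted p under 0.05) and Mx2, an antiviral GTPase, was the only one called negative (10 at an unadjusted p under 0.05), at -0.68 (SE 0.18, adjusted p 0.0157). These are 0% and 1.89% of the list, against 7.27% and 7.7% of all tested genes. The list's median difference was -0.15, against 0.02 over all genes, and 39 of the 53 members lay below 0. FosKO-labelled libraries were higher in these genes both before LPS (median 0.98 over the list, 0.00 over all genes) and after it (median 0.87 against 0.00). Mx2, for instance, was 9.17, 9.05 and 8.95 in LysM_unstim and 9.80, 10.19 and 10.39 in FosKO_unstim. After LPS it was 12.28, 12.25 and 12.46 in LysM_stim120 and 12.65, 12.69 and 12.82 in FosKO_stim120. Mx2 thus had the higher values under the FosKO label both times, and the gap narrowed on the log2 scale, while its linear rise was larger there by 1007 units. The count of negative calls in this list moved from 1 to 11 without FosKO_unstim replicate 1, to 2 without FosKO_stim120 replicate 3 and to 12 with quantile normalisation, and the count of positive calls moved from 0 to 1 without FosKO_unstim replicate 3. FosKO_unstim replicate 1 was the lowest of its group in Mx2.

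Receptors and signal transducers of interferon and IL-10 were called positive in 1 (5%, against 7.27% of all tested genes) and negative in 4 (20%, against 7.7%) of 20. The negative count was 7 with quantile normalisation and 6 without FosKO_unstim replicate 1. Ifnar1, a chain of the type I interferon receptor, was 12.17, 12.17 and 12.16 in LysM_unstim and 12.15, 12.17 and 12.21 in FosKO_unstim. It reached 12.83, 12.82 and 12.83 in LysM_stim120 but 12.42, 12.44 and 12.40 in FosKO_stim120. The difference was -0.41 (SE 0.04, adjusted p 7.09e-08), and the groups were apart at 2 h and not before. Ifnar2 was called too (-0.17, adjusted p 0.012), as was Ifngr2, a chain of the interferon gamma receptor, which rose in the controls and fell in FosKO-labelled libraries (-0.42, adjusted p 8.87e-07). Stat5a differed by -0.32 and Stat3, a transducer of IL-6 and IL-10, by 0.39 (adjusted p 0.00832 and 0.00243). Stat3 and Stat5a lie tail to tail and overlap on opposite strands.

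Among interleukins and other cytokines, 8 of 27 tested genes (29.6%, against 7.27% of all) were called positive and 3 (11.1%, against 7.7%) negative, with a list median of 0.27. With quantile normalisation the positive count was 5. Il6, an inflammatory cytokine, was 4.84, 4.81 and 4.83 in LysM_unstim, 9.65, 9.60 and 9.92 in LysM_stim120, 4.86, 4.84 and 5.12 in FosKO_unstim, and 11.10, 10.96 and 11.33 in FosKO_stim120. Il12b, the shared chain of IL-12 and IL-23, was 6.64, 6.68 and 6.61 in LysM_unstim, 12.33, 12.42 and 12.59 in LysM_stim120, 6.80, 6.88 and 7.27 in FosKO_unstim, and 13.77, 13.77 and 13.96 in FosKO_stim120. Both were higher in every library labelled FosKO than in every control at 2 h. The differences were 1.29 for Il6 (SE 0.16, adjusted p 1.21e-05) and 1.05 for Il12b (SE 0.15, adjusted p 6.44e-05). Areg (1.00), Il33 (1.03), Il1a (0.55), Il27 (0.72) and Tnfsf15 (0.81) were the other positive calls besides Tnf, and these were named after their values were seen. The call for Tnfsf15 was lost without LysM_unstim replicate 1 (0.76) or 2 (0.81), FosKO_unstim replicate 1 (0.62), LysM_stim120 replicate 1 (0.77) or 2 (0.79), or FosKO_stim120 replicate 2 (0.81) or 3 (0.79), and Il27 lost its call with quantile normalisation (0.51).

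Tnf, the early cytokine of this response, had a small difference. It was 12.26, 12.28 and 12.27 in LysM_unstim, 15.57, 15.60 and 15.65 in LysM_stim120, 12.48, 12.57 and 12.66 in FosKO_unstim, and 16.17, 16.08 and 16.27 in FosKO_stim120. It rose 10.1-fold in LysM-Cre and 12.2-fold in FosKO-labelled libraries, and the difference of 0.27 had an adjusted p of 0.0261. That call was lost without LysM_unstim replicate 2 (0.26, adjusted p 0.0554), FosKO_unstim replicate 1 (0.22, adjusted p 0.0705), LysM_stim120 replicate 1 (0.25, adjusted p 0.0631) or 2 (0.26, adjusted p 0.0542), or FosKO_stim120 replicate 3 (0.22, adjusted p 0.0744), and with quantile normalisation (0.03, adjusted p 0.859).

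Il10, the anti-inflammatory cytokine, moved the other way. It was 5.78, 6.13 and 6.04 in LysM_unstim, 8.08, 8.18 and 8.30 in LysM_stim120, 5.60, 5.84 and 5.73 in FosKO_unstim, and 6.38, 6.30 and 6.79 in FosKO_stim120. The groups overlapped before LPS and were apart after it, since Il10 rose 4.62-fold in LysM-Cre and 1.70-fold in FosKO-labelled libraries. The difference was -1.44 (SE 0.19, adjusted p 2.14e-05). Csf2, which encodes GM-CSF, followed the same course. Csf2 was 3.75, 3.93 and 3.79 in LysM_unstim, 6.44, 6.49 and 6.60 in LysM_stim120, 3.82, 3.80 and 3.88 in FosKO_unstim, and 5.34, 4.81 and 5.46 in FosKO_stim120. Its difference was -1.32 (SE 0.18, adjusted p 3.12e-05). Csf1, the macrophage growth factor, was the remaining negative call of the list (-0.69, adjusted p 7.3e-06), although it gained 1886 more linear units in FosKO-labelled libraries.

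Chemokines, which guide leukocytes, were called in both directions. Of 12 tested CC chemokines limma called none positive (against 7.27% of all, and 1 at an unadjusted p under 0.05). It called 4 (33.3%, against 7.7% of all) negative, with a list median of -0.14, and with quantile normalisation the negative count was 7. A positive call, for 1 gene, appeared without FosKO_unstim replicate 3 or without LysM_stim120 replicate 3. Ccl22, a ligand of CCR4 that draws regulatory T cells, was 6.31, 6.27 and 6.41 in LysM_unstim, 11.60, 11.62 and 11.68 in LysM_stim120, 6.30, 6.19 and 6.49 in FosKO_unstim, and 9.74, 9.62 and 9.98 in FosKO_stim120. It had the largest negative difference of the genes named by rule, -1.86 (SE 0.15, adjusted p 4.25e-08), from a 39.6-fold rise in LysM-Cre and a 10.9-fold rise in FosKO-labelled libraries. Ccl17, the other CCR4 ligand, was 5.81, 5.80 and 5.79 in LysM_stim120 and 4.11, 3.78 and 4.79 in FosKO_stim120, with a difference of -1.56 (SE 0.24, adjusted p 0.000111). Before LPS both ligands overlapped between the genotypes.

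Ccl5 and Ccl7, which draw T cells and monocytes, had a higher start in FosKO-labelled libraries. Ccl5 was 9.11, 8.97 and 8.96 in LysM_unstim and 10.56, 10.97 and 11.39 in FosKO_unstim, then 13.10, 13.15 and 13.20 in LysM_stim120 and 13.56, 13.57 and 13.73 in FosKO_stim120. Both times its values under the FosKO label were the higher, and the gap narrowed (difference -1.49, SE 0.29, adjusted p 0.00112). On the linear scale the rise of Ccl5 was larger in FosKO-labelled libraries, by 2005 normalised units (no test). Ccl7 (-0.57, adjusted p 0.00469) had the same pattern, with a linear difference of 2574 units.

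Of 5 tested neutrophil-attracting CXC chemokines, Cxcl3 was called negative (20%, against 7.7% of all tested genes) and Cxcl2 positive (20%, against 7.27%). Cxcl3 was 4.87, 4.90 and 4.68 in LysM_unstim, 9.47, 9.58 and 9.54 in LysM_stim120, 5.05, 5.03 and 5.24 in FosKO_unstim, and 8.35, 8.15 and 8.49 in FosKO_stim120. It started slightly higher and ended lower in FosKO-labelled libraries, with a difference of -1.49 (SE 0.13, adjusted p 1.69e-07). Cxcl2 rose a little more there (0.41, adjusted p 0.00368), a call that quantile normalisation removed (0.22). These neighbouring genes, which share the receptor CXCR2, thus differed in sign. The receptors Cxcr4 (0.92, SE 0.11, adjusted p 7.21e-06), which fell less in FosKO-labelled libraries, and C5ar1 (0.53, adjusted p 2.05e-06) were the calls among 12 tested chemokine and formyl peptide receptors (16.7%, against 7.27% of all). Limma called none of that list negative (against 7.7% of all, and 1 at an unadjusted p under 0.05), but 1 gene was without FosKO_unstim replicate 1 and 2 were with quantile normalisation.

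Immediate early genes are switched on by existing transcription factors within minutes of a stimulus. They were called positive in 10 of 21 tested members (47.6%, against 7.27% of all). The only negative call was Mcl1 (-0.29), which is 4.76% of the list, against 7.7% of all. The list median was 0.25. Klf4, a zinc finger transcription factor, was 8.53, 8.52 and 8.55 in LysM_unstim, 7.90, 7.93 and 7.87 in LysM_stim120, 8.24, 8.04 and 8.16 in FosKO_unstim, and 9.0, 9.2 and 9.3 in FosKO_stim120. It fell in LysM-Cre and rose in FosKO-labelled libraries, with a difference of 1.65 (SE 0.09, adjusted p 8.92e-11). Egr1, a factor induced through ERK, was 9.09, 8.72 and 8.74 in LysM_unstim, 9.51, 9.72 and 9.67 in LysM_stim120, 8.77, 8.52 and 8.63 in FosKO_unstim, and 10.52, 10.51 and 10.78 in FosKO_stim120 (difference 1.18, SE 0.14, adjusted p 5.7e-06). It overlapped between the genotypes before LPS and stood apart after it. Egr3 (0.64) and Nr4a2 (0.58) were called as well, with adjusted p of 0.00161 and 0.0114. A second member was called negative without FosKO_unstim replicate 1 or without FosKO_stim120 replicate 3. The positive calls for Egr2, Btg2 and Csrnp1 depended on single libraries. All were lost without LysM_unstim replicate 1 (0.26, 0.26 and 0.29) or LysM_stim120 replicate 1 (0.32, 0.25 and 0.28), and each in further settings.

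AP-1 genes and their partners were called positive in 8 of 21 (38.1%, against 7.27% of all) and negative in 4 (19%, against 7.7%), and with quantile normalisation 5 were positive. The positive calls include Fos itself, the targeted gene, which had the largest difference of the list (1.8). Jun, the main partner of FOS, was 11.44, 11.51 and 11.52 in LysM_unstim, 9.87, 9.98 and 10.04 in LysM_stim120, 11.62, 11.63 and 11.62 in FosKO_unstim, and 10.75, 10.73 and 10.79 in FosKO_stim120. It fell in both genotypes, less in FosKO-labelled libraries (difference 0.66, SE 0.06, adjusted p 7.28e-08). Jdp2, which encodes an AP-1 repressor, rose 15.1-fold in LysM-Cre and 7.80-fold in FosKO-labelled libraries (-0.95, SE 0.11, adjusted p 4.93e-06). The negative count fell to 2 without LysM_unstim replicate 3 or without FosKO_stim120 replicate 2. Fosl1 (0.06, adjusted p 0.9), Fosb (-0.08, adjusted p 0.93) and Junb (0.07, adjusted p 0.67), which code for other AP-1 subunits, were not called.

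Inhibitors that damp the ERK pathway were among the positive genes. Of 21 tested genes of the pathway, 5 (23.8%, against 7.27% of all) were called positive and 2 (9.52%, against 7.7%) negative. Dusp6, a phosphatase of ERK, was 9.88, 9.59 and 9.74 in LysM_unstim, 7.77, 7.84 and 7.79 in LysM_stim120, 9.69, 9.63 and 9.58 in FosKO_unstim, and 8.40, 8.38 and 8.40 in FosKO_stim120 (difference 0.70, SE 0.09, adjusted p 1.77e-05). It overlapped between the genotypes at 0 h and was higher in every library labelled FosKO at 2 h. Spry1 (0.60), Spry2 (0.58) and Dusp16 (0.56), further inhibitors of MAP kinase signalling, were called too. The kinase genes themselves, Map3k8 (-0.04, adjusted p 0.83) and Mapk3 (0.09, adjusted p 0.091), were not. Dusp1 (-0.24, adjusted p 0.0032) and Spred2 were the negative calls, and Spred2 (-0.23) lost its call, at values from -0.19 to -0.24, when any 1 library was left out other than LysM_unstim replicate 2, LysM_stim120 replicate 2 or FosKO_stim120 replicate 1.

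Dusp7, another ERK phosphatase and outside that list, was 9.67, 9.67 and 9.60 in LysM_unstim and 9.78, 9.76 and 9.76 in LysM_stim120. It was 10.61, 10.51 and 10.54 in FosKO_unstim and 9.41, 9.42 and 9.42 in FosKO_stim120. It was thus higher than the controls before LPS and lower after it, a difference of -1.25 (SE 0.07, adjusted p 8.92e-11).

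NF-kB subunits, inhibitors and close targets were called in both directions, 6 positive (28.6%, against 7.27% of all) and 7 negative (33.3%, against 7.7%) of 21. The positive member with the largest difference, Zfp36l1, encodes a protein that speeds the decay of AU-rich mRNAs. It was 11.68, 11.60 and 11.53 in LysM_unstim, 10.31, 10.38 and 10.38 in LysM_stim120, 11.33, 11.29 and 11.50 in FosKO_unstim, and 11.39, 11.30 and 11.43 in FosKO_stim120. It fell by 1.25 in LysM-Cre and changed by 0.00 in FosKO-labelled libraries (difference 1.24, SE 0.10, adjusted p 5.35e-08). Bcl3 (-0.78, SE 0.10), a nuclear regulator of NF-kB, Tnip1 (-0.64, SE 0.07), an inhibitor, and the adhesion molecule Icam1 (-0.54, SE 0.12) were called negative, with adjusted p of 1.52e-05, 3.55e-06 and 0.00348. All 3 started higher in FosKO-labelled libraries. At 2 h Bcl3 and Tnip1 were lower there and Icam1 overlapped between the genotypes. Nfkb1 (0.02, adjusted p 0.89) and the inhibitor Tnfaip3 (-0.05, adjusted p 0.74) were not called. With quantile normalisation the split was 4 positive and 10 negative.

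**Figure D3:**
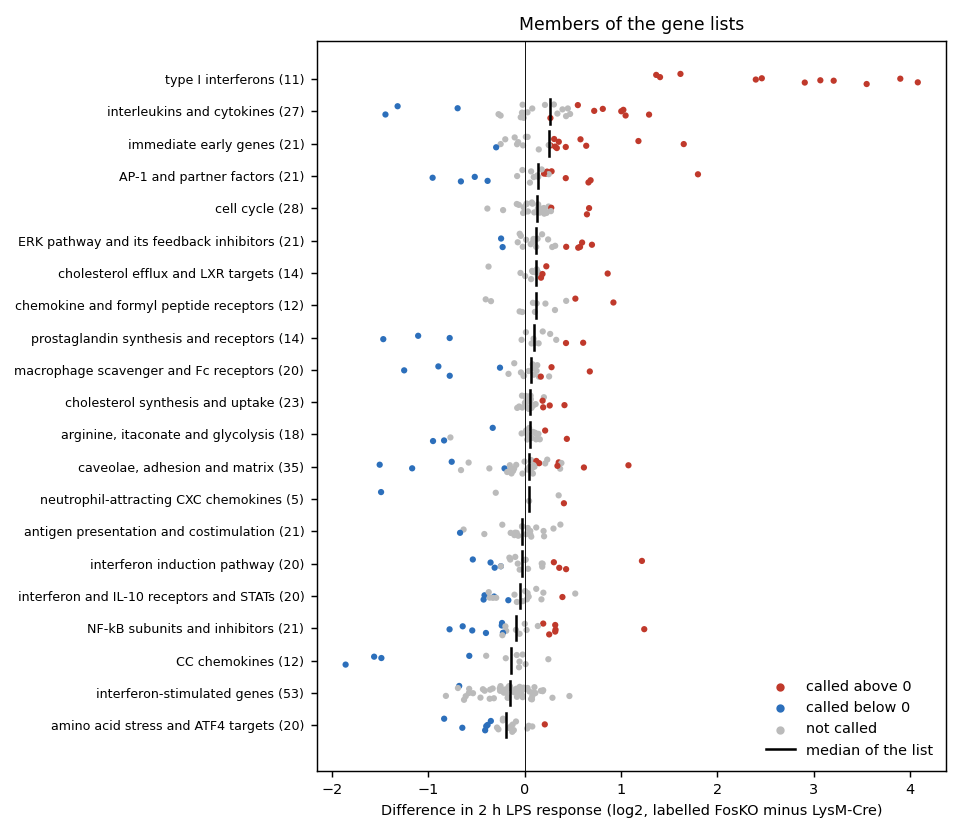
Difference in the 2 h LPS response (log2, labelled FosKO minus LysM-Cre) of each tested member of 21 gene lists, in red (called above 0), blue (called below 0) or light grey (not called), with a black line at the median and the number tested in parentheses. No median is drawn for the type I interferons, since several entered the test through FosKO-labelled libraries alone, and the 53 interferon-stimulated genes lie mostly left of 0.

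Prostaglandin genes were called in both directions, enzymes and receptors alike. Ptges, which makes prostaglandin E2, was 6.23, 6.14 and 6.12 in LysM_unstim, 8.07, 7.98 and 8.11 in LysM_stim120, 6.69, 6.72 and 6.91 in FosKO_unstim, and 7.33, 7.11 and 7.14 in FosKO_stim120. It was higher in FosKO-labelled libraries before LPS and lower after it, with a difference of -1.47 (SE 0.13, adjusted p 1.08e-07). The prostaglandin receptors Ptger2 (-1.10, SE 0.13) and Ptgir (-0.78, SE 0.09), which raise cyclic AMP, were also negative, with adjusted p of 6.02e-06 and 7.47e-06. Ptger4 was positive (0.43, adjusted p 0.0029). Adora2b, an adenosine receptor that raises cyclic AMP as well and is not on that list, rose 2.90-fold in LysM-Cre and 1.13-fold in FosKO-labelled libraries (-1.36, SE 0.12, adjusted p 7.28e-08). Ptgs2, the inducible cyclooxygenase, had a positive difference of 0.61 (adjusted p 0.0252), a call that was lost without LysM_unstim replicate 1 (0.56) or 3 (0.60), FosKO_unstim replicate 1 (0.46), LysM_stim120 replicate 1 (0.57) or 2 (0.60) or FosKO_stim120 replicate 3 (0.53). In all, 2 of 14 tested members (14.3%) were positive and 3 (21.4%) were negative, against 7.27% and 7.7% of all genes.

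Genes of caveolae, adhesion and matrix were called positive in 6 (17.1%, against 7.27% of all tested genes) and negative in 4 (11.4%, against 7.7%) of 35. Cav1, the main protein of caveolae, was 6.03, 5.84 and 5.89 in LysM_unstim, 9.70, 9.80 and 9.71 in LysM_stim120, 4.96, 4.98 and 4.97 in FosKO_unstim, and 7.25, 7.14 and 7.48 in FosKO_stim120. It was lower in FosKO-labelled libraries at both times, and the gap widened (-1.50, SE 0.12, adjusted p 4.25e-08). Mmp14, a membrane-bound matrix protease, started higher there (9.66, 9.92 and 10.11 against 8.24, 8.29 and 8.15) and rose less (-1.17, SE 0.14, adjusted p 8.69e-06). Serpinb2, a plasminogen activator inhibitor, rose 6.07-fold in LysM-Cre and 12.8-fold in FosKO-labelled libraries (1.08, SE 0.19, adjusted p 0.000586), and it overlaps Serpinb10 on the same strand. The positive count of this list fell to 3 without FosKO_stim120 replicate 1 and with the 12 libraries of the contrast alone.

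Of 23 tested genes of cholesterol synthesis and uptake, 4 (17.4%, against 7.27% of all) were called positive by limma and none negative (against 7.7% of all, and 0 at an unadjusted p under 0.05). With quantile normalisation 2 were positive. Insig1, which holds back sterol synthesis, was 12.49, 12.54 and 12.52 in LysM_unstim, 12.60, 12.60 and 12.60 in LysM_stim120, 12.57, 12.54 and 12.53 in FosKO_unstim, and 13.03, 13.05 and 13.06 in FosKO_stim120 (0.41, SE 0.04, adjusted p 9.57e-08). The groups overlapped at 0 h and not at 2 h. Ch25h, an interferon-inducible cholesterol hydroxylase, was the largest of 4 positive calls (28.6%, against 7.27% of all) among 14 genes of cholesterol efflux (0.86, SE 0.14, adjusted p 0.000229). Limma called none of these 14 negative (against 7.7% of all, and 1 at an unadjusted p under 0.05). The positive count of the efflux list was 2 without LysM_stim120 replicate 1 and with quantile normalisation, and 1 negative call appeared in both of these and without FosKO_unstim replicate 1.

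Of 18 tested genes of arginine, itaconate and glycolysis, 2 (11.1%, against 7.27% of all tested genes) were called positive and 3 (16.7%, against 7.7%) negative. Pfkfb3, which speeds glycolysis, was 9.54, 9.48 and 9.54 in LysM_unstim, 10.43, 10.47 and 10.66 in LysM_stim120, 10.16, 10.41 and 10.50 in FosKO_unstim, and 10.38, 10.31 and 10.54 in FosKO_stim120. It began higher in FosKO-labelled libraries and overlapped between the genotypes at 2 h (-0.95, SE 0.12, adjusted p 1.86e-05). Hif1a, a regulator of glycolysis, rose less there (-0.33, adjusted p 0.000138). Irg1, which makes itaconate, was negative on the log2 scale (-0.83, adjusted p 0.0184) but gained 41770 more linear units in FosKO-labelled libraries. Of 20 tested genes of amino acid stress and ATF4, 6 (30%, against 7.7% of all) were negative and 1 (5%, against 7.27%) positive. They included Ddit4, an inhibitor of mTOR signalling (-0.83, SE 0.16, adjusted p 0.000806), Chac1 (-0.65, adjusted p 0.01) and Atf4 itself (-0.38, adjusted p 2.3e-05). The negative count of that list fell to 3 without LysM_unstim replicate 2, without FosKO_unstim replicate 2 or without LysM_stim120 replicate 2.

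Receptors for particles and debris were called negative in 4 (20%, against 7.7% of all tested genes) and positive in 3 (15%, against 7.27%) of 20. Olr1, a receptor for oxidised LDL, was 4.81, 4.77 and 4.74 in LysM_unstim, 9.75, 9.83 and 9.68 in LysM_stim120, 4.76, 5.06 and 4.80 in FosKO_unstim, and 8.45, 8.60 and 8.77 in FosKO_stim120 (-1.25, SE 0.14, adjusted p 4.24e-06). Marco, a receptor for bacteria, was 5.93, 5.56 and 5.87 in LysM_unstim, 7.43, 7.27 and 7.68 in LysM_stim120, 8.44, 8.77 and 8.43 in FosKO_unstim, and 9.29, 9.53 and 9.14 in FosKO_stim120 (-0.89, SE 0.18, adjusted p 0.00138). Olr1 overlapped between the genotypes at 0 h, while Marco was higher in FosKO-labelled libraries at both times and gained 146.3 more linear units there. Mertk, a receptor for dying cells, fell by 0.68 in LysM-Cre and changed by -0.01 in FosKO-labelled libraries (0.68, SE 0.09, adjusted p 1.75e-05). Quantile normalisation left 1 positive call in this list.

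Of 21 tested genes of antigen presentation and costimulation, Icosl, a ligand of the T cell receptor ICOS, was the only call (-0.67, SE 0.11, adjusted p 0.000313). That is 4.76% negative and 0% positive, against 7.7% and 7.27% of all tested genes. No member was called positive by limma (2 at an unadjusted p under 0.05), but 2 were without FosKO_unstim replicate 3 and 1 without LysM_unstim replicate 2, and 3 were called negative without FosKO_unstim replicate 1 and with quantile normalisation. Of 28 cell cycle genes, 3 (10.7%, against 7.27% of all tested genes) were called positive and none negative (against 7.7%). Ccne1 (0.67, SE 0.13), Mki67 (0.65, SE 0.14) and Pcna (0.28, SE 0.06) had adjusted p of 0.000988, 0.00334 and 0.00211, and limma gave 2 negative genes at an unadjusted p under 0.05. Without FosKO_unstim replicate 1 there were 5 positive calls, and 1 negative call appeared without LysM_unstim replicate 1 or without FosKO_stim120 replicate 3. With quantile normalisation 2 cell cycle genes were positive and 2 negative, and Pcna lost its call (0.20).

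Other genes with a large difference belong to none of the lists. Plagl1, a zinc finger transcription factor, rose 5.70-fold in LysM-Cre and 16.2-fold in FosKO-labelled libraries (1.51, SE 0.17, adjusted p 4.43e-06). Phlda1 (1.28, SE 0.10) and Bambi (1.12, SE 0.13), a decoy receptor of the TGF-beta family, rose more there too, with adjusted p of 3.46e-08 and 3.6e-06. Oaf (-1.28, SE 0.15) and Rhou (-1.37, SE 0.20), a small GTPase, rose less, with adjusted p of 4.64e-06 and 5.14e-05, and Rhou overlaps Gm20388 on the same strand, as Irf8 does. The largest positive difference among genes named by rule was that of Gm42674 (5.31, SE 1.33, adjusted p 0.00891), a gene model that overlaps S100a4 and S100a3 on their strand. Its values in FosKO_unstim were 3.96, 7.06 and 4.68, far apart for 1 group, so this value is uncertain.

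In 110 of the 13901 tested genes the responses were called in opposite directions. Of these, 63 rose in LysM-Cre and fell in FosKO-labelled libraries, and 47 did the reverse. All 110 were called in the difference, which nearly follows from how they were picked and is no further support. None had responses of at least 2-fold in both directions. Klf4 (-0.63 in LysM-Cre, 1.02 in FosKO-labelled libraries) and Dusp7 (0.12 and -1.14) are described above. Genes picked out after their values were seen include the kinase-like Trib1 (-0.28 and 0.58) and the transcription factors Crem (-0.29 and 0.32), Bach1 (-0.39 and 0.14), Irf2 (-0.27 and 0.24) and Elf1 (-0.13 and 0.34), which fell in LysM-Cre and rose in FosKO-labelled libraries. Tnfsf14 (0.50 and -0.45), Hilpda (0.33 and -0.52) and Pdgfa (0.25 and -0.54) rose in LysM-Cre and fell in FosKO-labelled libraries.

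The other times with LPS show how the difference at 2 h arose. In the order 0, 0.5, 1 and 2 h, the genotypes differed in Ifnb1 by 0.10, 1.69, 3.18 and 3.00, and in Ifna5 by 0.07, 0.04, 3.09 and 4.15. Il10 differed by -0.26, -0.75, -1.36 and -1.70, and Csf2 by 0.01, -1.07, -1.43 and -1.31. The difference of these genes was thus present by 1 h. Klf4 differed by -0.39, -0.36, -0.01 and 1.27, Irf8 by 0.11, 0.14, 0.31 and 1.33, and Zfp36l1 by -0.23, -0.31, -0.13 and 1.02, so that most of their difference arose after 1 h. Ptger2 (0.25, 0.17, 0.11 and -0.85) and Ccl17 (-0.02, 0.00, -0.16 and -1.58) also parted after 1 h.

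**Figure D4:**
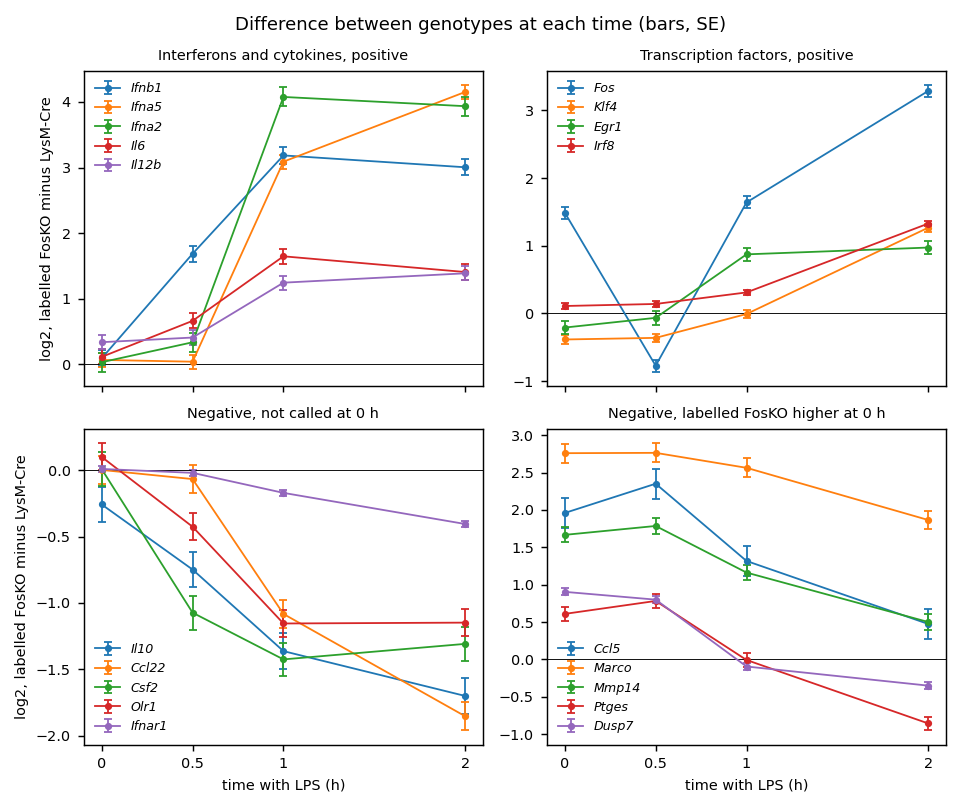
Difference between the genotypes (log2, labelled FosKO minus LysM-Cre) at 0, 0.5, 1 and 2 h with LPS for 19 genes, with bars of 1 SE. Interferon genes part by 1 h, Klf4 and Irf8 between 1 and 2 h, and genes such as Marco and Ccl5 start apart and come closer.

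Called genes were also described by length, level and chromosome. Of these the comparison used the level, in its filter and its variance trend. Positive genes had a median span of 37.1 kb in GENCODE M21, negative genes 21.8 kb and genes not called 18.3 kb, and their median exonic length was 5.61, 4.60 and 3.85 kb. Their median level over all libraries was 10.20, 9.14 and 8.18, so called genes were more highly expressed, and what this does to the other features was not tested. Of tested genes on the X chromosome 2.25% were called negative, the lowest share among chromosomes 1 to 19 and X, and 6.74% positive.

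Promoters of called genes were compared with all promoters of the same length, 12215 windows of 9576 matched genes. The interferon-response letters (GAAA, any 2 bases, GAAA) were in 4.16% of promoters of positive genes, 1.74% of those of negative genes and 3.33% of all. The positive genes include near copies, and Ifna1, Ifna2, Ifna4 and Ifna5 each hold these letters. How far such copies raise the share of positive genes was not tested. The AP-1 letters TGANTCA were in 5.67%, 5.22% and 5.37%. The NF-kB motif was in 9.83% of promoters of positive genes, 12.4% of those of negative genes and 10.3% of all. The cyclic AMP response letters TGACGTCA were in 3.21%, 2.29% and 3.05%, and the CArG box bound by SRF in 1.89%, 1.56% and 1.2%. Both strands were searched, and these shares are a description of letters in the windows.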

How the data were processed

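The authors prepared TruSeq libraries, sequenced them from 1 end in a strand-specific way on an Illumina HiSeq, and, per the labels' processing notes, used STAR 2.5.2a, RSEM 1.2.31 and DESeq2 1.16.1 on GRCm38. They deposited normalised log2 values for 24273 genes in 24 libraries. The transform is not stated in the sources used here. If it shrinks low values, as some DESeq2 transforms do, differences of low genes are understated, and this was not tested. The depth per library is unknown.

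Genes with a linear value (2 to the power of the deposited value) of at least 5 in at least 3 libraries were tested, which kept 13901. One limma 3.58.1 fit (R 4.3.3) took all 24 libraries, with 8 group means, 16 residual degrees of freedom and moderated variances with a trend. P-values were adjusted by Benjamini-Hochberg over all tested genes, and a gene was called under 0.05. The fit was tested on simulated data. The members and lists were chosen with earlier results of these data known. Genes were named by rule: the 12 largest called differences in each direction among protein-coding genes with a linear mean of at least 50, up to 4 called members of each list with the largest difference, and Fos, Lyz2, Ifnb1, Il10, Tnf and Jun. Others named were chosen after their values were seen, and some genes the rule names are not reported here. Identifiers were matched to GENCODE M21, where 99.58% were found, and promoters to RefSeq by symbol. Within a genotype, deviations of libraries with the same replicate number correlated weakly, at 0.017 to 0.089 (median 0.035). Between libraries with other numbers they correlated at -0.072 to 0.031 (median -0.017). Whether a number stands for a shared mouse is not known from the labels. Alternatives were other scalings (TMM factors computed from the linear values, among others), filters, a pseudocount, variance models, replicate blocks, other sets of libraries and the linear scale. With 3 libraries against 3, no exact permutation test of 1 gene was used.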

Additional observations from a re-analysis of the deposited data

Results flagged for a closer look

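Every gene below had a difference between the genotypes in its 2 h response that the limma test of that difference called, among 1010 positive and 1071 negative calls. The values are differences on the log2 scale. No test for a library that stands apart within its group of 3 was made, though a fit with array weights was among the alternatives.

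Among genes named by rule, the positive differences of at least 2-fold were those of Gm42674 (5.31), Ifna5 (4.08), Ifna2 (3.90), Ifna4 (3.55), Ifna1 (3.21), Ifnb1 (2.91), Fos (1.80), Klf4 (1.65), Plagl1 (1.51), Il6 (1.29), Phlda1 (1.28), Zfp36l1 (1.24), Irf8 (1.22), Egr1 (1.18), Bambi (1.12), Serpinb2 (1.08) and Il12b (1.05).

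The negative differences of at least 2-fold were those of Ccl22 (-1.86), Ccl17 (-1.56), Cav1 (-1.50), Cxcl3 (-1.49), Ccl5 (-1.49), Ptges (-1.47), Il10 (-1.44), Rhou (-1.37), Adora2b (-1.36), Csf2 (-1.32), Oaf (-1.28), Dusp7 (-1.25), Olr1 (-1.25), Mmp14 (-1.17) and Ptger2 (-1.10).

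Smaller positive differences were called for Cxcr4 (0.92), Ch25h (0.86), Dusp6 (0.70), Mertk (0.68), Ccne1 (0.67), Jun (0.66), Mki67 (0.65), Egr3 (0.64), Ptgs2 (0.61), Spry1 (0.60), Nr4a2 (0.58), Spry2 (0.58), Dusp16 (0.56), C5ar1 (0.53), Pfkp (0.44), Tlr4 (0.43), Cxcl2 (0.41), Insig1 (0.41), Stat3 (0.39), Cd14 (0.36), Pcna (0.28), Tnf (0.27), Pparg (0.23), Dhcr7 (0.19), Plin2 (0.19) and Mylip (0.17).

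Smaller negative differences were called for Jdp2 (-0.95), Pfkfb3 (-0.95), Marco (-0.89), Irg1 (-0.83), Ddit4 (-0.83), Bcl3 (-0.78), Ptgir (-0.78), Clec4e (-0.78), Thbs1 (-0.76), Mx2 (-0.68), Icosl (-0.67), Chac1 (-0.65), Tnip1 (-0.64), Ccl7 (-0.57), Ikbke (-0.54), Icam1 (-0.54), Ifngr2 (-0.42), Ifnar1 (-0.41), Nupr1 (-0.41), Trib3 (-0.40), Hif1a (-0.33) and Stat5a (-0.32). Some of these calls were lost without 1 library or under another scaling, among them those for Tnf, Ptgs2, Pcna, Pparg, Dhcr7, Mylip, Nupr1 and Trib3.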

How the results depend on the processing

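All 23 alternative fits were planned, and none reversed the sign of any of 146 genes, which are those named by rule, the called members of the lists and 8 genes with opposite responses. Of these, 113 kept their side of the threshold in each fit that tested them. The main fit called 145 of the 146, and the alternatives reuse its libraries. A reversed sign was thus unlikely from the start, and the lack of one is a description. Genes given in the text as not called, other than Lyz2, were not followed across the fits. The count of called genes ran from 1687 to 2105 when 1 of the 12 libraries was left out (812 to 1107 positive, 871 to 1078 negative), and array weights gave 1546 positive calls. The count of positive calls of at least 2-fold was 28 with a stricter filter of a linear value of 50, which tests fewer genes. Quantile normalisation moved the share of positive calls from 48.5% to 40.0%, the others to between 46.3% and 52.6%. The replicate number as a block gave 2316 calls, and the number within genotype 2540. No paired reading was made, since the labels do not say which mouse each library came from. Positive cell cycle calls went from 3 to 6 and 10 under these blocks and to 5 with array weights, and negative calls among interferon-stimulated genes from 1 to 2, 9 and 9. On the linear scale, which has no test, 28 of 2081 called genes changed sign, among them Ccl5 (2005 units), Ccl7 (2574), Csf1 (1886), Mx2 (1007), Irg1 (41770), Nupr1 (382), Marco (146.3) and Clec4e (922.8).

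The calls for several small differences were lost when single libraries were left out, at values of the same sign. Dhcr7 was called in the full set (0.19) and lost its call in 8 of the 12 settings without 1 library, at 0.16 to 0.20. Pparg (0.23) lost it without LysM_unstim replicate 3 (0.20), FosKO_unstim replicate 2 (0.20), LysM_stim120 replicate 1 (0.20) or FosKO_stim120 replicate 1 (0.19). Mylip (0.17) lost it without LysM_unstim replicate 1 (0.15), FosKO_unstim replicate 1 (0.15), LysM_stim120 replicate 1 (0.16) or FosKO_stim120 replicate 2 (0.16). Nupr1 (-0.41) and Trib3 (-0.40) lost it without most single libraries, at -0.32 to -0.42. Quantile normalisation also removed the calls for Plin2 (0.05), Pcna (0.20), Tnf (0.03), Ptgs2 (0.40) and Cxcl2 (0.22), and made one for Lyz2 (-0.54). The cause of these changes was not tested. The depth of each library is unknown, so genes with low values, such as single interferon alpha copies, are limited by the spread between 3 libraries alone.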
